A study of Oryza sativa with 4 samples.

Results

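The genes described here are 7 of the 37858 gene IDs in a count table of rice leaf RNA, chosen by ID because they encode enzymes of jasmonate synthesis or the transcription factor MYC2. They are the lipoxygenase RCI1 (Os12g0559200), the allene oxide synthases AOS1 (Os03g0767000) and AOS2 (Os03g0225900), the allene oxide cyclase AOC (Os03g0438100), the reductase OPR7 (Os08g0459600), the conjugating enzyme JAR1 (Os05g0586200) and MYC2 (Os10g0575000). The names come with the choice of the IDs, because the count table gives IDs only. A RefSeq gene table of another assembly (ASM3414082v1) held none of the 7 IDs (0 matched), but it held the names of 5 of them (AOS1, AOS2, AOC, OPR7 and JAR1), each with an entry on the chromosome given by the digits of the ID.

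The libraries were made from leaves of the cultivar Nipponbare, the japonica rice on which the reference genome is based. Leaves from the progeny of heat-treated seeds, called heated 1 and 2, were compared with leaves of control progeny, called control 1 and 2, with 2 libraries per group. The treatment label gives 25 °C for control 1 and 30 °C for both heated libraries, but it also gives 30 °C for control 2, which its title names a control. No allele or transgene is given for any library, and the sources used here do not give the number of plants behind a library, their age or whether replicates came from separate plants. Total expected counts were between 15444235 and 17298384 per library. The leaf identity could not be checked with marker genes, since the tables at hand do not pair the IDs with names.

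Jasmonates are fatty acid derived hormones that act in wound and insect responses, in defence and in flower development. In the chloroplast a lipoxygenase adds oxygen to a polyunsaturated fatty acid, an allene oxide synthase turns the hydroperoxide into an unstable epoxide, and allene oxide cyclase closes the ring to give the precursor OPDA. In the peroxisome an OPDA reductase and rounds of beta-oxidation finish jasmonic acid, and JAR1 joins it to isoleucine, the form that the COI receptors bind. Binding leads to the loss of JAZ repressors and frees MYC2, which activates jasmonate-responsive genes.

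None of the 7 genes passed the test for a difference between heated and control leaves (0 of 7, quasi-likelihood test of edgeR, with p-values adjusted over all 22184 genes tested by the Benjamini-Hochberg method and a threshold of 0.05). The same test called 0.699% of all genes tested, 0.248% higher and 0.451% lower in heated leaves, so the count of 0 among 7 is near the background. Before adjustment, 1 of the 7, JAR1, had a p under 0.05, as did 9.23% of all genes tested. DESeq2, the exact test of edgeR and limma-voom also called 0 of the 7. Over all genes they called 551 of 23364, 724 of 22184 and 131 of 22184 tested. All 7 passed the filter on low counts, but AOS2 had between 5 and 13 reads per library. For 5 of the 7 genes, the 95% interval of the fold change lay within a 2-fold change in either direction. The exceptions were AOS2, with its few reads, and RCI1, whose replicates stood far apart. Leaf tissue holds several cell types, and in such bulk RNA a smaller share of cells that express a gene and less of its RNA per cell cannot be told apart.

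**Figure D1:**
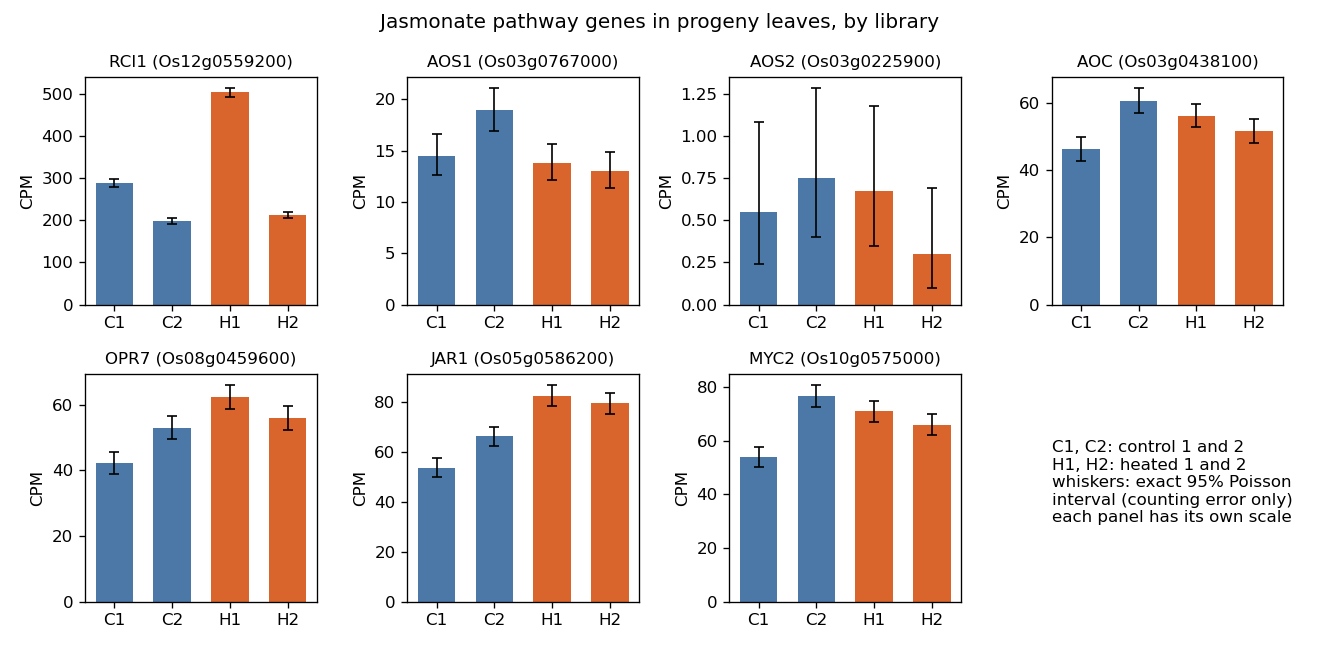
Level of each gene in each library, in CPM (read counts scaled to library size), from 0 and with a scale of its own per panel; whiskers are exact 95% Poisson intervals that cover counting error only. RCI1 stands out in heated 1 at 503 CPM, JAR1 and OPR7 are higher in both heated libraries than in both controls, and the remaining genes except AOS1 overlap between groups.

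RCI1, the lipoxygenase at the entry of the pathway, had a level of 289 CPM in control 1 (CPM, the count scaled by library size), 198 CPM in control 2, 503 CPM in heated 1 and 212 CPM in heated 2. Heated 1 was thus above the other 3 libraries, while heated 2 lay between the controls and the groups overlapped. The control mean was 243 ± 64.2 CPM and the heated mean 358 ± 206 CPM (SD, n = 2). The log2 fold change was 0.56 (SE 0.41, edgeR adjusted p = 0.754), with a 95% interval from -0.42 to 1.54. This positive value rested on heated 1, because the log2 fold change was -0.20 without that library and 1.05 without heated 2. For fits that leave 1 library in a group, only sizes are given for the members. The level in heated 1 was 2.37 times that in heated 2, and only 1.09% of all genes tested differed as far between the heated libraries on the log2(CPM + 0.5) scale. Between the controls, in which RCI1 was the member higher in control 1, the difference on that scale, control 2 minus control 1, was smaller, at -0.54. A difference at least that large, in either direction, was found between the controls for 21.3% of genes.

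The allene oxide synthases AOS1 and AOS2, cytochrome P450 enzymes of the CYP74 family, carry out the first committed step. AOS1 had 14.5 CPM in control 1, 18.9 CPM in control 2, 13.8 CPM in heated 1 and 13.0 CPM in heated 2. Both heated libraries were below both controls, by a small margin to control 1, and such a position was found for 19.5% of all genes tested. The means were 16.7 ± 3.11 CPM and 13.4 ± 0.586 CPM (SD, n = 2). The log2 fold change was -0.32 (SE 0.20, edgeR adjusted p = 0.706), with an interval from -0.80 to 0.16. It was -0.50 without control 1 and -0.13 without control 2.

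The counts of AOS1 were fractional in all 4 libraries, which in this table marks reads divided between gene IDs. The ID 2 rows before it, Os03g0766900, had fractional counts that added up with those of AOS1 to whole numbers in every library, 544, 673, 678 and 642 reads in control 1, control 2, heated 1 and heated 2. AOS1 was assigned 38.8% of the summed level of the pair in control 1, 48.7% in control 2, 36.4% in heated 1 and 34.1% in heated 2. The pair together had 37.4, 38.8, 38.0 and 38.1 CPM in the same order, a much narrower spread than that of AOS1 alone. Its log2 fold change was -0.0028 (SE 0.13, edgeR adjusted p = 0.998), an alternative added after the data were seen. Os03g0766900 itself, for which no annotation was at hand, had a log2 fold change of 0.20 (SE 0.16, edgeR adjusted p = 0.769). The sum was thus nearly constant, while the share assigned to AOS1 was lower in both heated libraries than in both controls. Control 2 stood furthest from the rest, and control 1 was close to heated 1. Which of the IDs the shared reads came from was not tested.

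**Figure D2:**
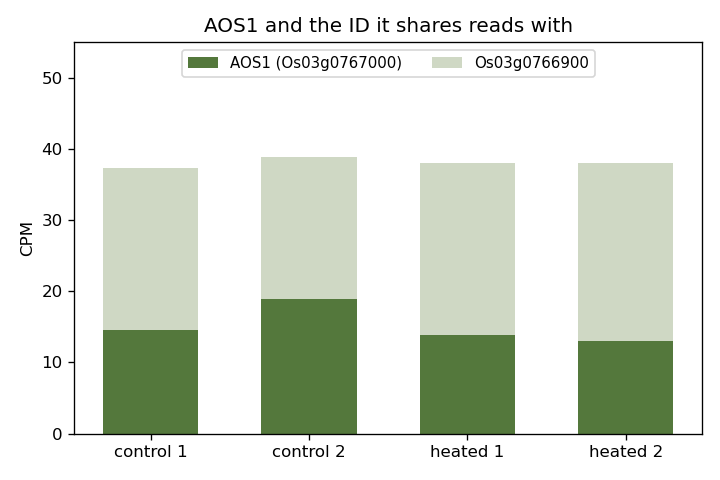
Stacked level of AOS1 and of Os03g0766900, the ID with which it shares reads, in each library (CPM from 0). The height of the stack stays between 37.4 and 38.8 CPM, while the part assigned to AOS1 ranges from 13.0 to 18.9 CPM.

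AOS2 was close to the limit of detection, with 8 and 13 reads in the controls and 12 and 5 reads in heated 1 and 2. These counts correspond to 0.549, 0.750, 0.672 and 0.296 CPM. Exact 95% Poisson intervals, which cover counting error only, ran from 0.237 to 1.08 CPM in control 1 and from 0.0963 to 0.692 CPM in heated 2, and that of control 1 covered the values of all 4 libraries. The log2 fold change of -0.42 (SE 0.66, edgeR adjusted p = 0.892) had an interval from -2.01 to 1.17. Neither a 2-fold rise nor a 2-fold fall of AOS2 could be told from no change at this depth.

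AOC, which rice needs for jasmonate synthesis as the hebiba mutant shows, had 46.2 CPM in control 1, 60.6 CPM in control 2, 56.1 CPM in heated 1 and 51.5 CPM in heated 2. Both heated values lay between the controls. The control mean of 53.4 ± 10.2 CPM nearly equalled the heated mean of 53.8 ± 3.26 CPM (SD, n = 2). The log2 fold change was 0.010 (SE 0.17, edgeR adjusted p = 0.991). Its interval, 0.758-fold to 1.34-fold, was narrow enough to leave out a change of 2-fold.

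OPR7, the peroxisomal OPDA reductase, had 42.3 CPM in control 1, 53.0 CPM in control 2, 62.3 CPM in heated 1 and 55.9 CPM in heated 2. Both heated libraries were above both controls, as for 21% of all genes tested, but heated 2 exceeded control 2 by less than the controls differed. The means were 47.7 ± 7.58 and 59.1 ± 4.51 CPM (SD, n = 2), and the log2 fold change was 0.31 (SE 0.16, edgeR adjusted p = 0.641). It was 0.15 without control 1 and 0.47 without control 2.

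JAR1, the enzyme that forms the active jasmonoyl-isoleucine, had 53.8 CPM in control 1, 66.3 CPM in control 2, 82.6 CPM in heated 1 and 79.6 CPM in heated 2. The groups did not overlap, and the heated libraries lay close to each other. The heated mean of 81.1 ± 2.16 CPM was 1.35 times the control mean of 60.1 ± 8.89 CPM (SD, n = 2). The log2 fold change was 0.43 (SE 0.15) with an interval from 0.072 to 0.79 and an unadjusted p of 0.0258, but the edgeR adjusted p was 0.426. A fold change of this size or larger, in either direction, was found for 23.2% of all genes tested. The result depended on which control was kept. Without control 2 the log2 fold change was 0.58, and without control 1 it was 0.28. With 1 control left, the fit assumes that this library varies like the heated pair, so only the sizes are given here.

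MYC2, the basic helix-loop-helix factor that acts downstream of the hormone, had 53.9 CPM in control 1, 76.6 CPM in control 2, 71.0 CPM in heated 1 and 66.0 CPM in heated 2. Both heated values lay between the controls, as for AOC. The means were 65.3 ± 16.1 and 68.5 ± 3.52 CPM (SD, n = 2). The log2 fold change was 0.070 (SE 0.19, edgeR adjusted p = 0.942), with an interval from 0.764-fold to 1.44-fold. In heated 2 the count of 1113.92 was fractional, and the next ID, Os10g0575100, held 37.08 reads there and 0 in the other libraries. The pair summed to 1151 reads in heated 2, and with both summed the log2 fold change was 0.093 (SE 0.19, edgeR adjusted p = 0.921). RCI1 likewise shared reads with the following ID, Os12g0559250, with whole sums in 3 of the 4 libraries, but was assigned between 98.9% and 99.3% of their summed level. Its log2 fold change with that ID added was 0.55.

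**Figure D3:**
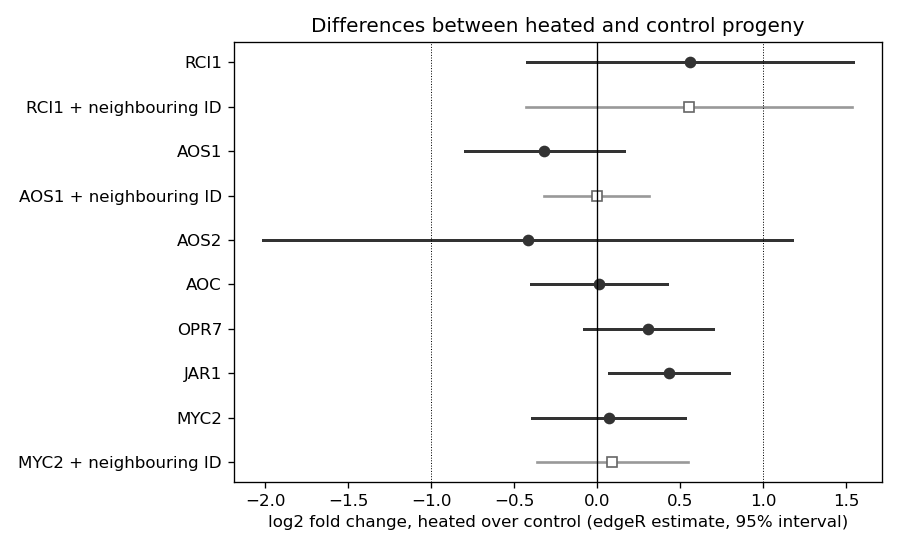
Log2 fold change of each gene, heated over control, with its 95% interval from the edgeR fit (filled circles), and the same after adding the neighbouring ID that shares its reads (open squares); dotted lines mark a 2-fold change. The interval of JAR1 alone, from 0.072 to 0.79, lies to one side of 0 before adjustment, and the estimate of AOS1 moves from -0.32 to -0.0028 once its neighbour is added.

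In all, 3 of the 7 genes had groups that did not overlap (AOS1 lower, OPR7 and JAR1 higher in heated leaves). The share among all genes tested was 40.5%, close to that count. The fold change was positive for 5 of the 7 genes and for 50.9% of all genes tested. The median log2 fold change of the 7 was 0.070, beside 0.0061 for all genes tested. Levels of different genes were not ranked, because the table gives no gene lengths.

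The control libraries, which also differ in the temperature of their treatment label, differed in the same direction for most of these genes. Control 2 was above control 1 for 6 of the 7 genes, by 1.23 times for JAR1 and up to 1.42 times for MYC2. RCI1 was the exception, with control 2 at 0.685 times control 1. Among all genes tested, 49.6% were higher in control 2 than in control 1. The smallest of these differences on the log2(CPM + 0.5) scale, that of AOS2, was reached by 52.8% of all genes in either direction, and that of MYC2 by 24.3%. AOS2 was smallest there because of the added 0.5, as its levels in the controls were 0.549 and 0.750 CPM. Its plain ratio of control 2 to control 1 was 1.37. Heated 1 was above heated 2 for all 7 genes, against 51.4% of all genes, with ratios of 1.04 for JAR1 to 1.11 for OPR7 among the genes other than RCI1 and AOS2. On the same log2 scale, differences as large as those of these genes were reached by 51.4% (OPR7) to 81.3% (JAR1) of all genes. For AOS2 and RCI1 the shares were 9.39% and 1.09%. AOC, OPR7, JAR1 and MYC2 had their lowest value in control 1, which was the case for 34.9% of all genes. The 7 values of a library share its scaling and are not independent of each other.

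Setting control 1 (25 °C) against the other 3 libraries (30 °C), as the treatment label would group them, also called 0 of the 7 genes, beside 0.747% of the 23285 genes tested. This fit takes the spread from the 3 libraries at 30 °C and assumes it for control 1. In this grouping the log2 difference of MYC2, 30 °C over 25 °C, was 0.40 (SE 0.13, unadjusted p = 0.0221, edgeR adjusted p = 0.170). OPR7 had 0.43 (SE 0.14, edgeR adjusted p = 0.168) and JAR1 0.50 (SE 0.16, edgeR adjusted p = 0.168). These were the 3 of 7 genes with an unadjusted p under 0.05, a mark that 21.3% of all genes reached. AOC had 0.28 (SE 0.13, edgeR adjusted p = 0.299), and AOS1, AOS2 and RCI1 had values between 0.063 and 0.077. Temperature label and library cannot be told apart here, because 1 library has the label of 25 °C.

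Dividing each gene by AOC in the same library removes the scaling of that library, but it brings the variation of AOC itself into every ratio. The ratios are therefore not independent of each other. The choice of AOC as the denominator was made after the values were seen. JAR1 stood at 1.16 and 1.09 times AOC in control 1 and 2, and at 1.47 and 1.54 times AOC in heated 1 and 2. The heated ratios were thus above both control ratios, on average 1.34 times as high. OPR7 stood at 0.915 and 0.874 times AOC in control 1 and 2, and at 1.11 and 1.09 times AOC in heated 1 and 2. AOS1 had nearly identical ratios in the controls, 0.314 and 0.312, and lower ones in heated 1 and 2, 0.246 and 0.252, with the division of its reads as described above. The level of AOS1 and Os03g0766900 together stayed between 37.4 and 38.8 CPM, while both heated values of AOC lay between the controls. The ratio of that pair to AOC therefore overlapped between groups. MYC2 kept close to AOC, at 1.17 and 1.26 times its level in control 1 and 2 and 1.27 and 1.28 times in heated 1 and 2, the lowest heated ratio exceeding that of control 2 only slightly. For RCI1 and AOS2 the ratios overlapped between groups. In total, 4 of 6 ratios did not overlap, beside 29.7% of all other genes tested when divided by AOC. AOS1 counts among the 4 by its assigned reads alone. With 2 libraries against 2, a two-sided exact permutation test cannot go below p = 0.333, so the ratios are given as a description with no test.

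**Figure D4:**
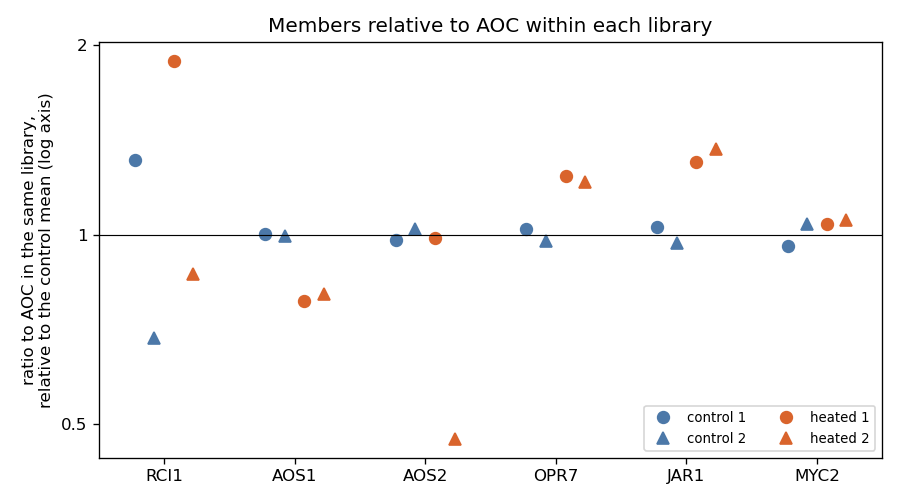
Each gene divided by AOC in the same library, relative to the mean of the control libraries (log axis). The points of AOS1, from its assigned reads alone, fall to 0.786 and 0.805 in heated 1 and 2. Those of OPR7 and JAR1 in the same libraries lie between 1.21 and 1.37, and those of MYC2 stay within 0.960 and 1.06.

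Among the members, AOC and MYC2 had the most similar profiles, with a root mean square difference of 0.054 between their centred log2(CPM + 0.5) values over the 4 libraries. OPR7 and JAR1 followed with 0.072. RCI1 was the least like the others, at about 0.50 or more from each of them. Among all other IDs tested, the one nearest to RCI1 was Os02g0244600, at 0.080, with 13.0, 9.52, 25.4 and 11.1 CPM in control 1, control 2, heated 1 and heated 2. Only 4 IDs lay within 0.1 of RCI1, against 642 within 0.1 of JAR1 and 1332 within 0.1 of MYC2. Nearest to JAR1 was Os07g0614700 (0.0042), nearest to AOS1 Os02g0655800 (0.013) and nearest to AOS2 Os04g0367800 (0.010). With 4 libraries and 22177 IDs compared, close matches of this kind are frequent. For AOS2, with its few reads, the added 0.5 also narrows such differences.

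A list of 49 further IDs was drawn up for the rest of the pathway from general knowledge of rice locus numbers. The tables at hand name none of them (0 matched), so it is given as counts. Of these, 39 were tested, 0 were called higher and 1 was called lower, beside 0.248% and 0.451% of all genes tested. The direction of the calls depended on the setting. DESeq2 called 3 higher and 2 lower, beside 276 and 275 of the 23364 genes it tested. The exact test of edgeR called 6 and 4, beside 389 and 335 of 22184 genes. The fit with a replicate block called 3 and 2, beside 295 and 237 of 22184 genes. The ID called in the reported test was Os04g0301500, which had 21.2 CPM in control 1, 13.4 CPM in control 2, 3.81 CPM in heated 1 and 2.49 CPM in heated 2. Both heated libraries were below both controls, with a log2 fold change of -2.45 (SE 0.33, edgeR adjusted p = 0.0428). It was not called with limma-voom, with total counts or without either heated library. The median log2 fold change of the 39 was 0.19 (quartiles -0.12 and 0.45), beside 0.0061 (quartiles -0.20 and 0.20) for all genes. Before adjustment, 13 of the 39 had a p under 0.05, beside 9.23% of all genes tested. They include OPR family IDs with 0.173 CPM or less in the controls, which passed the filter on low counts through the heated libraries alone. The list was also drawn up with earlier results of these data known, so this share is a description only.

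By role, as listed, the 5 IDs of peroxisomal beta-oxidation, the steps after OPR7, all had positive log2 fold changes, from 0.12 to 0.50, beside 50.9% positive among all genes tested. All 5 had their lowest value in control 1, as AOC, OPR7, JAR1 and MYC2 did and 34.9% of all genes. A low control 1 also lowers the control mean, so this position and the positive fold changes are not independent of each other. None of them was called (0 of 5). Of 12 JAZ repressor IDs tested, 6 were positive and 6 negative, with values from -1.83 to 1.59, and 0 were called. The 3 COI receptor IDs had values between -0.033 and 0.35. The 1 hydroperoxide lyase ID tested had -0.62, and the 3 IDs of jasmonate conjugation and turnover had values from -2.00 to 0.25. Of the 2 IDs of jasmonate-responsive transcription factors, Os04g0301500 had -2.45, as given above, and the other had 1.11. The 7 further lipoxygenase IDs tested had a median of 0.021, with values from -0.24 to 0.97. Of the 6 tested IDs of the OPR family, 3 had values between -0.055 and 0.19 and 3 had values of 2.46 or above, and 0 were called. In 2 of these last 3, the controls held 0.173 CPM or less, so that they passed the filter on low counts through the heated libraries alone.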

How the data were processed

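Leaf RNA was purified by a phenol, chloroform and lithium chloride method and sequenced as paired ends after a strand-marking mRNA library kit, per the labels' protocols. The submitters' processing notes name the build IRGSP-1.0 and the tools RSEM, Bowtie2, Trimmomatic, edgeR 3.26.3 and FastQC 0.11.7. The annotation and strand setting were not given in the sources used here. Per the file headers the authors deposited expected counts from RSEM's gene results, not normalized. RSEM divides reads that match several genes, so counts can be fractional and genes that share reads are uncertain to that extent. Columns of other samples numbered 0.

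Expected counts were rounded and tested with edgeR 4.0.16 in R 4.3.3 (quasi-likelihood test, TMM, filterByExpr with minimum count 10 and total 15, group by title), which tested 22184 IDs. The script was tested on simulated data. CPM used the TMM-scaled sizes of the tested genes. The standard error is the log2 fold change over the square root of F, and intervals use the t distribution of the fit. Alternatives used DESeq2 1.42.0 and limma 3.58.1 among others. Counts were called whole within 0.015 reads, and neighbours were sought within 3 rows. Since separate plants are not stated, the p-values reflect the spread between libraries, which may be technical.

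The members and lists were chosen with earlier results of these data known. Besides the 7 members, the named IDs were the nearest nonmember of the 2 members with the largest positive and the 2 with the largest negative fold change, and pathway IDs that passed the test. The IDs that share reads with members were named after their values were seen.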

Additional observations from a re-analysis of the deposited data

How the results depend on the processing

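The count of 0 members called held in every alternative that kept all 4 libraries. With 1 library left out, the fit assumes that the single library of a group varies like the other pair. No counts of calls are therefore given for these fits. Over all genes the count of 155 was 419 without a filter on low counts, 551 with DESeq2's Wald test, 724 with edgeR's exact test and 532 with a replicate block, and genes called higher made up 51.3%, 50.1%, 53.7% and 55.5% of these, against 35.5%. Grouping by the treatment label put 77.6% of calls on the higher side. Leaving out 1 library gave 64 to 2506 calls. The count of 1 pathway list ID was 3 without a filter (1 higher), 5 with DESeq2, 10 with the exact test, 5 with a replicate block, and 0 with total counts, limma-voom and the treatment label. It was 0 to 11 with 1 library left out (11 without control 2). The labels do not say that replicate numbers mark a shared batch, and the differences between replicates correlated by -0.0145 across genes between the groups. Of 104 alternative values for the members, 96 kept direction and side of the threshold and 7 changed sign, none of them called. In the remaining 1, JAR1 without control 2, the side of the threshold changed, but that fit has a single control. With 1 library left out, values ran from -0.50 to -0.13 for AOS1, 0.15 to 0.47 for OPR7, 0.28 to 0.58 for JAR1, -1.12 to 0.044 for AOS2, -0.18 to 0.21 for AOC, -0.20 to 1.05 for RCI1 and -0.17 to 0.33 for MYC2. The sign changes were AOS1 (0.074) and AOS2 (0.063) under the treatment label, AOS2 without heated 2 (0.044), AOC without control 1 (-0.18) and without heated 1 (-0.052), RCI1 without heated 1 (-0.20) and MYC2 without control 1 (-0.17). AOS2 was dropped when 10 counts were required in every library. Why these values shifted was not tested.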
